A study of Mus musculus with 3 samples.

Results

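Chemokines and their receptors were examined for binding of TBX5, a T-box transcription factor of heart, limb and lung mesenchyme, in fetal lung of CD-1 mice at E14.5, when the airways are branching. Members were the protein-coding RefSeq genes whose symbol is Ccl, Cxcl, Ccr or Cxcr followed by digits alone. There were 47 of them among 21521 protein-coding genes, 31 for ligands and 16 for receptors. The series held 2 libraries from chromatin immunoprecipitation and sequencing (ChIP-seq) against TBX5, with 1 whole lung in each, and 1 library of input chromatin. They are represented by 1 deposited list of 28381 peaks, stretches of the genome where ChIP reads were called above background, made once for the series. Without values for single libraries there is no replicate spread and no known depth, and no test of significance was made. The titles of all 3 libraries name lung, while the source field names heart for 2 of them. Whole lung was used, so the cell types in which a region was bound cannot be told apart.

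Chemokines are small secreted proteins that direct cell migration by binding receptors coupled to G proteins. CC chemokines carry their first pair of cysteines side by side and CXC chemokines carry them with one residue between, and the receptors are named after the class they bind. Most members are known from leukocytes or from inflamed tissue, whereas Cxcl12 and Cxcl14 are also made without inflammation by stromal cells, and Cxcl12 acts through Cxcr4 in the growth of vessels and the homing of progenitor cells.

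A peak was given to the coding gene with an annotated end (first or last base) nearest to its summit, up to a limit of 100 kb. Peaks carry the fold enrichment of the authors' caller, that is ChIP signal over local background at the summit, and a −log10 q. These are the authors' values and serve only to describe and rank peaks within the list. The first 5000 peaks by −log10 q (21.35 or more) are called strong here. Among genes typical of lung mesenchyme, 5 of 8 had a strong peak, against 1 of 8 for heart muscle (Nkx2-5) and 0 of 8 for immune cells, where Ptprc alone had peaks, 3 of them. All genes stood at 11.0%. The sequence assignable to a gene (nearer to its ends than to any other, within the limit) ran from 68.7 to 277.9 kb in the lung list and from 9.20 to 104.2 kb in the heart list, and its part in these counts was not tested.

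Most chemokine and receptor genes, like most protein-coding genes, had no assigned TBX5 peak, and a few members held most of those that were found. Of the 47 members, 15 had an assigned peak (31.9%, exact 95% binomial interval 19.1 to 47.1%), against 40.0% of all protein-coding genes. A strong peak was assigned to 6 members, Cxcl12, Ccl2, Ccl8, Ccl1, Ccl12 and Cxcl3 (12.8%, exact 95% binomial interval 4.83 to 25.7%), against 11.0% of all genes. Both intervals hold the value for all genes. The binomial intervals here and below treat genes as independent and cover counting error only. Of the members, 30 lie in 9 groups of neighbours at most 100 kb apart, so their counts are not independent. The 15 members had 47 peaks, of which 8 were strong, and Cxcl12 (13 peaks), Cxcl14 (6) and Cxcr4 (6) together held the larger share of them. At least 3 peaks were assigned to 6 members (Cxcl12, Cxcl14, Cxcr4, Cxcr5, Ccr7 and Ccl2), where 12.0% of all genes had that many. The median fold of the members' peaks was 7.56 (range 4.19 to 30.5), against 6.14 for all peaks assigned to a gene, and 29.8% of them reached 10-fold, against 21.2% of all peaks. The strong share was 17.0% of the members' peaks and 16.4% of all assigned peaks.

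**Figure D1:**
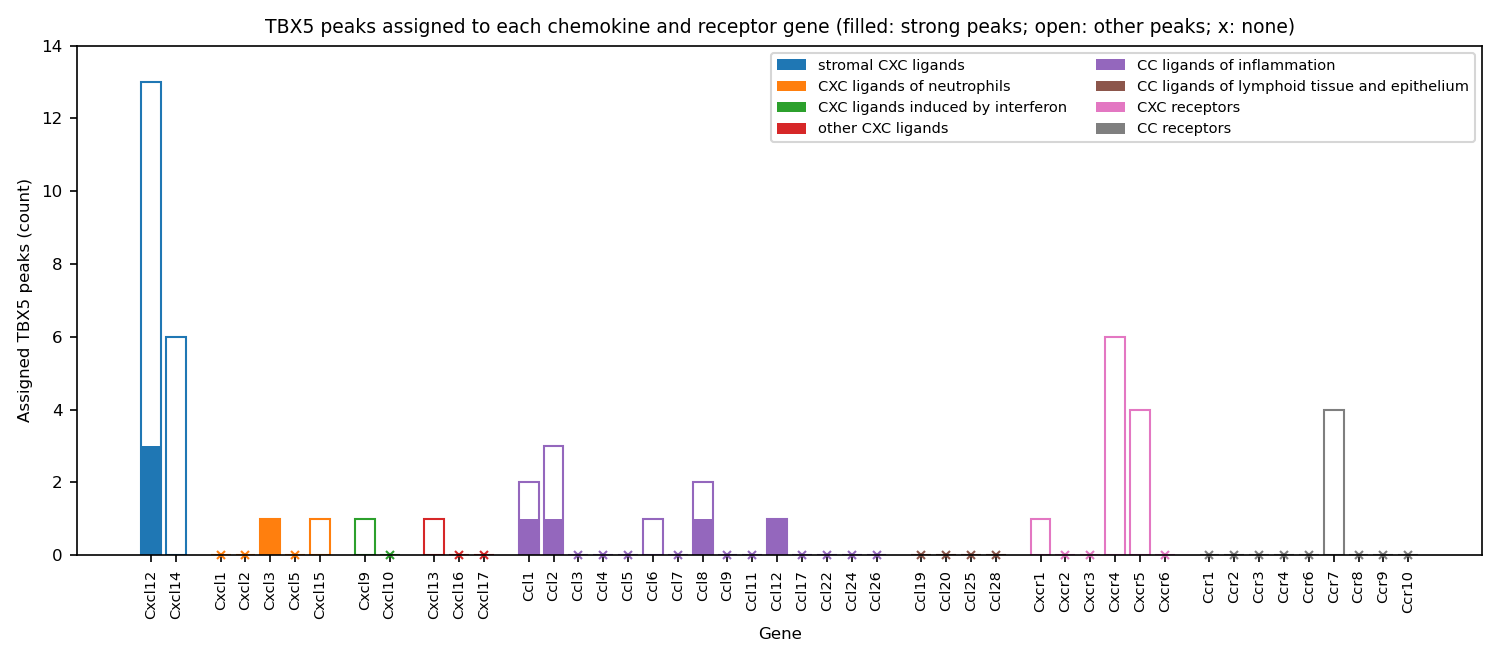
Number of TBX5 peaks assigned to each of 46 members (vertical axis, count), with genes grouped by role and coloured accordingly. Filled parts of the bars are strong peaks, open parts are other peaks and crosses mark genes with none. Cxcl12 stands highest with 13 peaks, the CC ligands with strong peaks are Ccl1, Ccl2, Ccl8 and Ccl12, and the receptors have no filled bar.

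None of the 47 peaks lay at a gene end. The summit closest to its gene was 1.79 kb away (Cxcr5) and the farthest 86.8 kb (Cxcl12). Among all genes, 19.9% had an assigned summit within 1 kb of one of their ends, and 0 of 47 members did. A summit did lie within 1 kb of an end of 2 members, but nearer to a neighbour. One was 43 bp from the first base of Ccl25 and 22 bp from the end of Elavl1, an RNA-binding protein gene that starts beside it (chromosome 8, 4324713 to 4325324, 7.82-fold). The other was 855 bp from Ccr10 and 765 bp from Plekhh3 (chromosome 11, 101172027 to 101172273, 6.04-fold). Start sites were known from RefSeq for 33 members, and of these Ccl25 alone had a summit within 1 kb of its start, where 23.2% of all genes with a listed start had one. When peaks within 1 kb of a gene end were left out, 31.9% of members and 28.6% of all genes had a peak.

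Cxcl12, the ligand of Cxcr4, had the most peaks of the family and its strongest one. The gene lies on chromosome 6 from 117168535 to 117181368 on the plus strand, with no other protein-coding gene within 451.6 kb below it (Tmem72) or 659.2 kb above it (Zfp637). Its 13 peaks were matched or exceeded in number by 92 protein-coding genes, itself included (0.427%). A single peak lay upstream, 7.97 kb from the start (7.54-fold), none lay inside the gene, and the other 12 lay downstream of its last base, between 19.7 and 86.8 kb away. A first group of 5 spanned 9.86 kb from summit to summit. It held the strongest peak of all members, from 117200880 to 117201270 (30.5-fold, rank 392 of 28381 by −log10 q), and a second strong peak of 17.7-fold from 117203598 to 117203928. The other peaks of that group had 5.46, 4.19 and 11.8-fold enrichment, the last of them just outside the strong class at rank 5222. A further group of 5 spanned 9.56 kb and began 64.2 kb from the gene. Its strong peak, of 12.6-fold, ran from 117254779 to 117255491, beside peaks of 5.18, 6.17, 5.04 and 4.68-fold. Single peaks at 49.4 and 86.8 kb had 5.10 and 5.11-fold enrichment. Strong and weak peaks were thus interleaved, and 5 of the Cxcl12 peaks ranked in the first 14190 by −log10 q. Rpl28-ps4, a pseudogene inside this downstream stretch, took all 12 downstream peaks when genes of every type could be assigned.

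Cxcl14, a chemokine made by epithelia and fibroblasts, had 6 peaks, none of them strong. It lies on the minus strand of chromosome 13 from 56288643 to 56296811. All 6 summits lay upstream of the gene, the opposite side to the downstream peaks of Cxcl12. The next coding gene was 36.46 kb away on the downstream side (Neurog1) and 141.1 kb away upstream (Slc25a48). Less downstream than upstream sequence could therefore be assigned to Cxcl14. Counting those nearer to another gene, 10 summits lay within 100 kb of it. A pair of peaks 7.79 and 8.33 kb from the gene had 5.34 and 7.33-fold enrichment. The other 4 lay 43.9 to 64.3 kb away and had 6.12, 8.14, 9.41 and 5.58-fold enrichment, in order of distance. The highest by −log10 q was the peak of 9.41-fold, from 56351470 to 56351703, at rank 6753. Of the 6 peaks, 4 were among the 14190 highest. At least 6 peaks were assigned to 845 genes (3.93%). Non-coding genes lie in the same upstream stretch, and 2 of the summits fell inside the lncRNA gene Gm40960. When genes of every type could be assigned, Cxcl14 had 2 peaks.

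**Figure D2:**
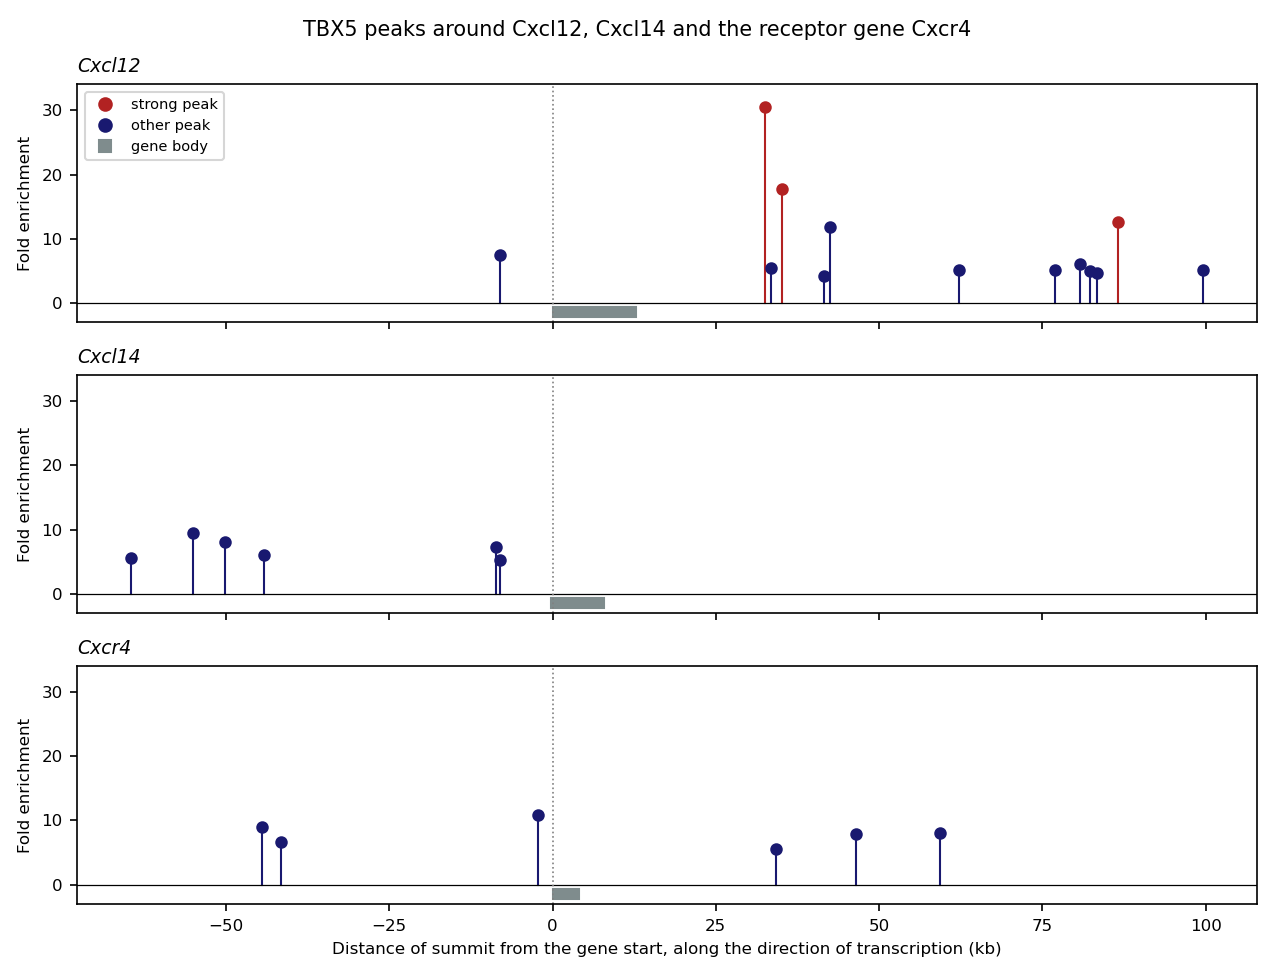
Fold enrichment of each assigned peak (vertical axis) against the distance of its summit from the gene start in kb, along the direction of transcription, for Cxcl12, Cxcl14 and Cxcr4. Red marks strong peaks, dark blue other peaks and grey bars the gene bodies. The Cxcl12 peaks are downstream except for 1, the 6 Cxcl14 peaks are all upstream, and those of Cxcr4 lie on both sides.

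Among the receptors, 4 of 16 had a peak (25.0%, exact 95% binomial interval 7.27 to 52.4%), against 40.0% of all genes. A strong peak was assigned to 0 of 16, where the interval reaches 20.6% and all genes stood at 11.0%. Both intervals hold the value for all genes. Cxcr4, the signalling receptor for Cxcl12, had 6 peaks around its gene on the minus strand of chromosome 1 (128588199 to 128592299). The best-ranked of them lay 2.22 kb upstream of the start, from 128594394 to 128594659, with 10.8-fold enrichment at rank 5802. Peaks of 6.60 and 8.95-fold lay 41.6 and 44.4 kb upstream, and peaks of 5.49, 7.83 and 8.01-fold lay 30.1, 42.3 and 55.3 kb beyond the other end. The lncRNA gene Gm41950 took 3 of these 6 peaks when genes of every type could be assigned. With a limit of 1 Mb, Cxcr4 took 2 further peaks, 195 kb (7.41-fold) and 211 kb away (11.2-fold, rank 4503 and so strong), and Cxcl12 took 2, at 149 kb (7.07-fold) and 188 kb (7.54-fold). No other member gained any.

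Cxcr5 and Ccr7, receptors of B cells and of T cells and dendritic cells on their way to lymphoid tissue, had 4 peaks each. The Ccr7 peaks formed 2 pairs on chromosome 11. One pair was inside the gene (7.81 and 4.71-fold), and the other lay 10.4 and 11.7 kb outside it (7.80 and 4.24-fold). All 4 Cxcr5 summits, of 5.06 to 8.48-fold, fell within the body of Bcl9l, a gene of the Wnt pathway that overlaps the Cxcr5 locus on chromosome 9. They went to Bcl9l when the nearest gene body was used, which left Cxcr5 with 0. Cxcr1, a neutrophil receptor, had 1 peak of 7.56-fold at 11.6 kb. The other 3 CXC receptor genes, Cxcr2, Cxcr3 and Cxcr6, had none. Of the 10 CC receptor genes, 1 had any, Ccr7 (10.0%, exact 95% binomial interval 0.253 to 44.5%). This interval holds the 40.0% of all genes.

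Of the 15 CC ligands of inflammation, 4 had a strong peak (26.7%, exact 95% binomial interval 7.79 to 55.1%, which holds the 11.0% of all genes). These 4 lie in one cluster on chromosome 11. It runs over 144.2 kb from Ccl2 through Ccl7, Ccl11, Ccl12 and Ccl8 to Ccl1 (82035577 to 82179812). Ccl2, Ccl7, Ccl8 and Ccl12 encode monocyte chemoattractants, Ccl11 encodes the eosinophil chemoattractant eotaxin, and Ccl1 encodes a ligand of Ccr8. The cluster had 8 assigned peaks, of which 4 were strong, and no other protein-coding gene lies inside it. Inside its span lay 5 summits, 3 of them strong. Ccl2 had 3 of the 8 assigned peaks, all below its first base and so outside that span. The strong one ran from 82014063 to 82014427, at 21.3 kb from the gene (27.3-fold), and the others had 5.46-fold at 12.9 kb and 10.2-fold at 2.61 kb. Gm11419, a lncRNA gene, took the strong one when genes of every type could be assigned. Ccl12 had 1 strong peak, 2.09 kb upstream of its start (82099394 to 82099987, 14.3-fold). Ccl8 had a strong peak 4.24 kb upstream (82110394 to 82111228, 27.3-fold) and a peak of 9.89-fold 22.9 kb downstream. The strong peak of Ccl1 lay 17.4 kb from its downstream end (82159015 to 82159433, 17.4-fold), and its other peak, of 11.5-fold, ranked 5074 and so fell just outside the strong class. Ccl7 and Ccl11 had 0 peaks, but the sequence nearer to them than to other genes is short, 11.1 kb and 29.7 kb, and 6 and 7 summits lay within 100 kb of them. The strongest peaks of Ccl2 and Ccl8 had the same fold and the same −log10 q, and 13 peaks of the list shared that pair of values. Such ties were the rule, since 96.0% of all peaks shared both values with another. Tied peaks were ranked in the order of the list, so the exact ranks given here are arbitrary within ties. At the lower bound of the strong class, 50 peaks shared one −log10 q.

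The second CC cluster of chromosome 11, with Ccl5, Ccl9, Ccl6, Ccl3 and Ccl4 over 138.9 kb (83525778 to 83664683), was of similar length. The sequence assignable to its members was shorter, 160.2 kb against 277.8 kb for the cluster from Ccl2 to Ccl1. These genes encode ligands made by macrophages and T cells. It had 1 peak, of 5.18-fold, 15.8 kb upstream of Ccl6, and no strong one. The remaining CC ligands of this class, Ccl17 and Ccl22, which attract T cells through Ccr4, and Ccl24 and Ccl26, eotaxins like Ccl11, had 0. So did all 4 CC ligands of lymphoid tissue and epithelium, Ccl19, Ccl20, Ccl25 and Ccl28. For these 4 genes the exact 95% binomial interval runs from 0 to 60.2% and holds the 40.0% of all genes. The summit 43 bp from the first base of Ccl25 was assigned to Elavl1.

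The CXC ligands of neutrophils had a peak in 2 of 5 genes, the same share as the 40.0% of all genes. Cxcl3 had 1 strong peak, 5.61 kb upstream of its start on chromosome 5 (90780292 to 90780710, 16.5-fold). Cxcl15, made by lung epithelium, had 1 peak of 10.8-fold at 29.9 kb (rank 6019). Cxcl1, Cxcl2 and Cxcl5, in the same cluster of 146.6 kb, had 0. Of the interferon-induced ligands, Cxcl9 had a peak of 6.60-fold inside the gene and Cxcl10 had none. Cxcl13, which guides B cells to follicles, had 1 peak of 11.3-fold 40.3 kb upstream (rank 5602), and Cxcl16 and Cxcl17 had none.

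**Figure D3:**
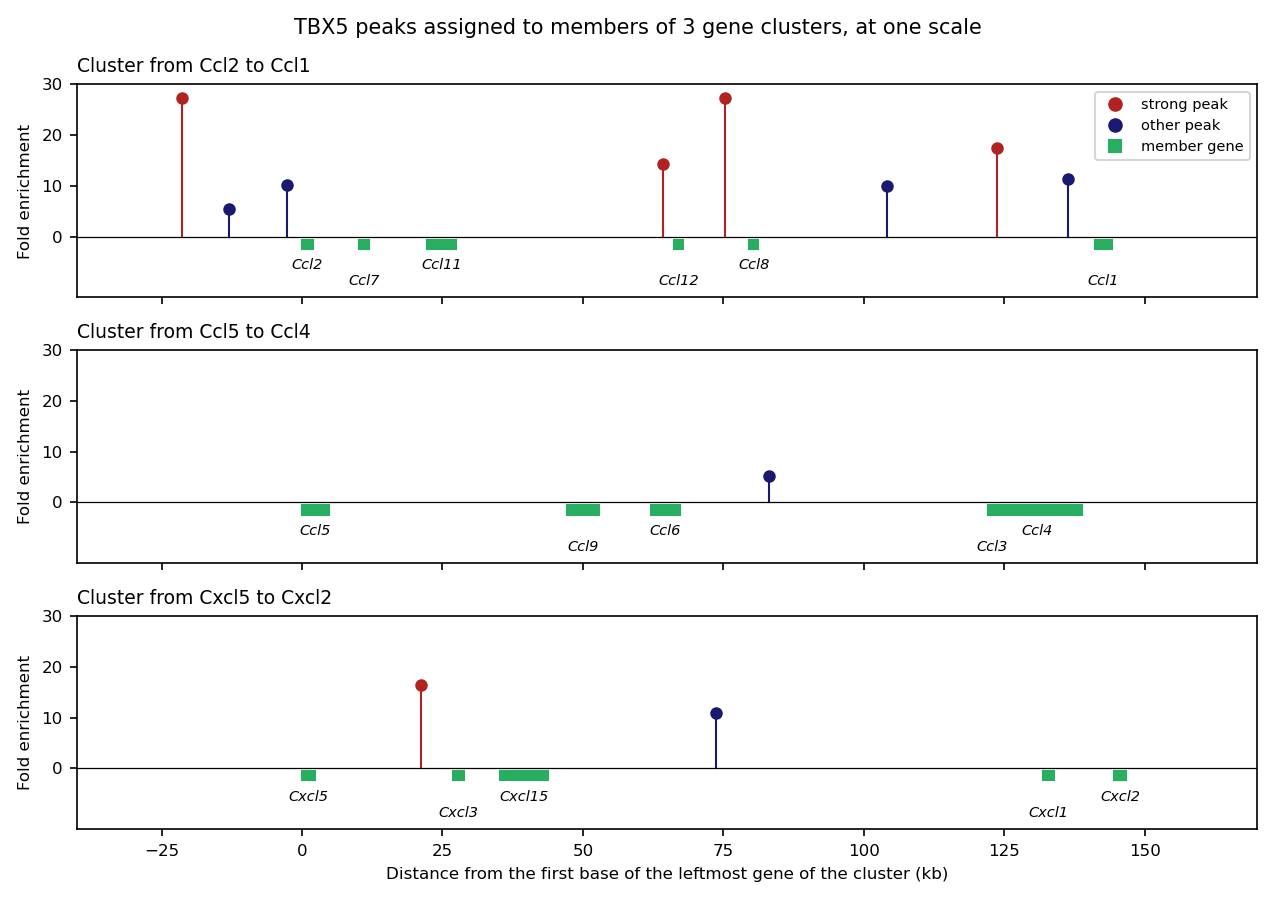
Fold enrichment of each peak assigned to a member (vertical axis) against the distance in kb from the first base of the leftmost gene, in 3 clusters drawn to one scale. Red marks strong peaks, dark blue other peaks and green boxes the member genes. Members of the cluster from Ccl2 to Ccl1 were assigned 8 peaks, against 1 and 2 in the clusters from Ccl5 to Ccl4 and Cxcl5 to Cxcl2. Inside the spans of these clusters lay 5, 1 and 3 summits, whatever gene they were assigned to.

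In all, 32 members had no assigned peak. Of these, 25 had a summit within 100 kb that was nearer to another gene, and 7 had none in that distance, among them Ccl19, Ccl20, Cxcl17, Ccr1, Ccr2 and Ccr3. An assigned peak was found for 31.9% of members and 40.0% of all genes. Any summit within 100 kb was found for 85.1% of members and 77.7% of all genes. The nearest summit to Ccl20, a ligand of Ccr6, was 392 kb away. Ccr1, Ccr3 and Ccr2, receptors of monocytes and eosinophils, are neighbours on chromosome 9, and their nearest summits lay 110, 166 and 204 kb away.

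Cxcl12 and Cxcl14 both had peaks, as did 13 of the other 45 members (28.9%, exact 95% binomial interval 16.4 to 44.3%, against 40.0% of all genes). The share was the same, 28.9% (11 of 38), when members known mainly from epithelium or from many cell types (Cxcl15, Cxcl16, Cxcl17, Ccl20, Ccl25, Ccl28 and Cxcr4) were also set aside. The stromal ligands had 13 and 6 peaks, and the median of the other members was 0, as it was for all genes. The assignable sequence was 212.8 kb for Cxcl12 and 97.0 kb for Cxcl14, against a median of 39.1 kb for the others and 45.8 kb for all genes. Per 100 kb of such sequence there were 6.11 peaks at Cxcl12 (exact 95% Poisson interval 3.25 to 10.4) and 6.19 at Cxcl14 (2.27 to 13.5). The other members, pooled, had 1.32 (0.878 to 1.91), close to the 1.31 of all genes. Some of them had more singly, among them Ccl2 (7.58), Cxcr5 (6.65) and Ccr7 (6.12). Peaks lie in groups and are not independent, so these intervals cover counting error only. Strong peaks were 3 of 19 (15.8%) at the stromal ligands, all of them at Cxcl12, and 5 of 28 (17.9%) at the others. The median fold was 6.12 (range 4.19 to 30.5) at the former and 7.92 (4.24 to 27.3) at the latter. Cxcl14 had no peak above 9.41-fold, while Ccl2, Ccl8, Ccl1, Cxcl3 and Ccl12 each had one of 14.3-fold or more. Among the 1000 highest peaks were those of Cxcl12, Ccl2 and Ccl8, 3 of 47 members, where 2.79% of all genes had such a peak.

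**Figure D4:**
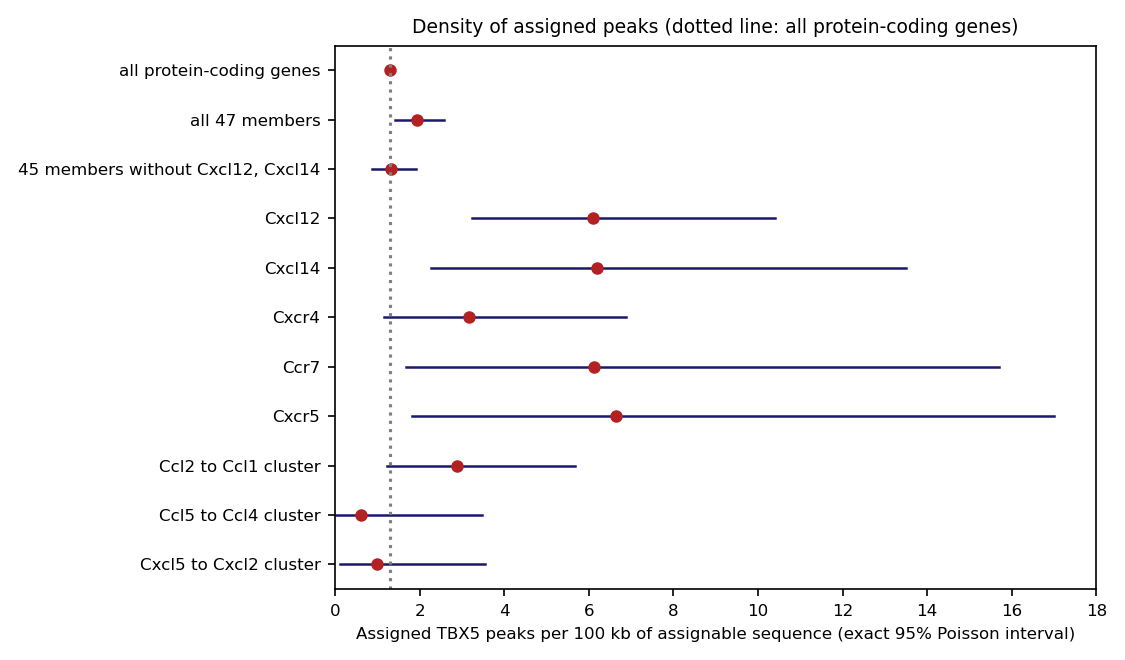
Assigned peaks per 100 kb of the sequence assignable to the gene or group (horizontal axis), with exact 95% Poisson intervals as bars and the value of all protein-coding genes, 1.31, as a dotted line. Below the groups, Cxcl12 and Cxcl14 are the stromal ligands compared here, and the other genes and the clusters were picked for having many peaks or many members. Ccl2, with 3 peaks and 7.58 per 100 kb, is not drawn singly. Cxcl12 (6.11) and Cxcl14 (6.19) lie to the right of the line, as do Cxcr5 (6.65), Ccr7 (6.12) and Cxcr4 (3.17). The 45 members without Cxcl12 and Cxcl14, pooled (1.32), lie on it.

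The density among the immune members was 2.88 per 100 kb (exact 95% Poisson interval 1.24 to 5.67) over the cluster from Ccl2 to Ccl1. The cluster from Ccl5 to Ccl4 had 0.624 (0.0158 to 3.48), and that from Cxcl5 to Cxcl2 had 0.982 (0.119 to 3.55). These intervals overlap each other. Single members ranged from 0 to 8.64 (Cxcl3, 1 peak in 11.6 kb). Among those with 3 or more peaks, Ccl2 had 7.58 (1.56 to 22.1), Cxcr5 6.65 (1.81 to 17.0, but 0 peaks by the nearest gene body), Ccr7 6.12 (1.67 to 15.7) and Cxcr4 3.17 (1.16 to 6.89). These members were picked by their peak counts, so their intervals cannot be set against the density of all genes.

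Sequences upstream of the gene start were available from RefSeq (GRCm38.p6) for 33 members, and none of the 47 peaks overlapped a promoter window of that table. The T-box half-site AGGTGTGA, searched on both strands in the 250 bases before the start, was found in 1 of the 35 windows of these members, that of Ccl20, and in 1.12% of all 32851 windows. The shorter core GGTGTG, which the half-site contains, was found in 5 windows (Ccl20, Ccl6, Ccr9, Cxcl14 and Cxcr1) and in 16.3% of all windows. Promoters are shown for Cxcl12, with the most peaks, for Ccl12 and Ccl8, the members with a strong peak nearest upstream of a listed start, and for Ccl20, which has the half-site in its promoter but no peak within 100 kb. They are the plus-strand stretches chr6:117168285-117168534, chr11:82101595-82101844, chr11:82114935-82115184 and chr1:83116516-83116765, with capitals marking the half-site in reverse complement.
Cxcl12: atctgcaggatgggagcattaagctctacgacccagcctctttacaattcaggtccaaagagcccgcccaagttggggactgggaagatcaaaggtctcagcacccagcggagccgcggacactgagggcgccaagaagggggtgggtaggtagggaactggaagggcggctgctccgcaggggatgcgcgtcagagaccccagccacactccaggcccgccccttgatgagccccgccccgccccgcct
Ccl12: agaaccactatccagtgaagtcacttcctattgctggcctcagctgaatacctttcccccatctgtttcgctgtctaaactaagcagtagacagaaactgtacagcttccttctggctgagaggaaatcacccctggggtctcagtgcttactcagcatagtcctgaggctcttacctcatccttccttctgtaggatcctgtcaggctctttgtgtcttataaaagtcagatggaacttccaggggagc
Ccl8: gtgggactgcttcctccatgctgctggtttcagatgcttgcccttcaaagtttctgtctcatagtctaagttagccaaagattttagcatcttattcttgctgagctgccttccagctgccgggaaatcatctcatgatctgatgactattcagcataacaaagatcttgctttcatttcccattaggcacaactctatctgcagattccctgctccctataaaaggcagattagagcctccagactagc
Ccl20: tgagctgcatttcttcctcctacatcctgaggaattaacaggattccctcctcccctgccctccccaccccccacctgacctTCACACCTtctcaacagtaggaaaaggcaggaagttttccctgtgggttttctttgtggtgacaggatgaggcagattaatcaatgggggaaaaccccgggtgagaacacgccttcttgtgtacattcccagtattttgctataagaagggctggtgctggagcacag
The summit nearest to the start was 7.97 kb away for Cxcl12, 2.09 kb for Ccl12 and 4.24 kb for Ccl8, so these promoters are not the sequences under their peaks. Sequence under the peaks was not analysed here.

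Other genes of the chemokine system were counted in the same way. Of 13 further ligand and receptor genes, 4 had a peak and 2 a strong one (40.0% and 11.0% of all genes). Ackr3, the atypical receptor that removes Cxcl12, had 4 peaks on chromosome 1. Its strong peak ran from 90225659 to 90226067, 10.2 kb from the gene (23.1-fold, rank 1278), and the others had 7.45, 5.49 and 3.92-fold enrichment. Ackr2, a decoy receptor for inflammatory CC ligands, had 3 peaks with 1 strong, of 20.3-fold at 2.77 kb. Xcl1 had 2 peaks, and Pf4, which sits in the cluster with Cxcl3, had 1 (5.65-fold). The 9 with none included Ackr1, Ackr4, Cx3cl1 and Cx3cr1. Of 12 genes for proteins that act on chemokines or carry their signal, 8 had a peak and 3 a strong one. These 3 were the β-arrestin gene Arrb1 (10 peaks, 2 strong, 27.1-fold at the strongest), the G protein gene Gnai2 (10.8-fold) and Rgs1, which ends G protein signalling (17.8-fold at 81.6 kb).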

How the data were processed

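TBX5 ChIP-seq libraries and an input library were represented by 1 deposited peak list in the layout that MACS2 writes. Per the submitters' processing notes, the tools included Bowtie2, SAMtools and MACS2 and the build was mm10. Their settings, any merging of libraries and the role of the input were not given in the sources used here. Per peak, the authors deposited a fold enrichment (a ratio), a −log10 of q, a score of about 10 times the −log10 q, and the summit offset. The units come from the layout and values, as the list has no header.

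Genes came from a RefSeq table of GRCm38.p6, the assembly of mm10, without 110 protein-coding genes on unlocalised scaffolds. It lists Cxcl11 as a pseudogene, so Cxcl11 was no member. Starts and strands came from the RefSeq promoter table, and gene ends elsewhere. Coordinates are 1-based. Intervals are exact (SciPy 1.17.1). The assignment was checked against a brute-force search. Members, roles and lists were chosen with earlier results of these data known. Named were Cxcl12, Cxcl14, Cxcr4, Ackr3, members with a strong peak or 3 or more peaks, the 10 with the highest −log10 q, any with a peak at a gene end, and by name those with none, except 1 that is counted but not reported here. Other assignments, limits and peak subsets were tried. Leaving out gene-end peaks, and the clusters of members at most 100 kb apart, were chosen after the data were seen.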

Additional observations from a re-analysis of the deposited data

How the results depend on the processing

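Of 58 values recomputed under 11 alternatives, 43 stayed within the exact 95% binomial interval of the share, or within 1.5 times the count, first given, and 15 did not. Some of the 43 could not move, such as those without gene-end peaks, as no member peak lay at a gene end. The intervals are wide, so a strong share of 6.38% with a limit of 10 kb (4.61% of all genes) counted as within the range of the 12.8% first given. With every member within 100 kb taking a peak, 85.1% of members and 84.4% of immune members had a peak and 29.8% of members a strong one, with 102 peaks in all, 79 at immune members and 10 at Cxcl14. When every gene took peaks in this way, 77.7% of all genes had a peak and 29.4% a strong one. With a limit of 10 kb there were 13 peaks, of which 10 were at immune members, 1 at Cxcl12 and 2 at Cxcl14. Among the 14190 peaks ranked first by −log10 q there were 28, of which 5 were at Cxcl12, and 27.7% of members and 25.4% of all genes had a peak. With every gene type able to take a peak there were 26, of which 1 was at Cxcl12 and 2 at Cxcl14, as pseudogenes and non-coding genes beside them took the rest. Cxcr4 was then left with 3 peaks, Ccl2 with 2 and Ccl6 with 0. A strong peak was assigned to 8.51% of members and 6.87% of all genes. Counting the 5 letter-suffixed genes (such as Ccl21a and Ccl27a) as members added 0 peaks. These genes include close copies of each other, so their counts are uncertain. No paired analysis was possible because the list has no value per library, and for the same reason no library could be left out. The depth is unknown, so a gene without a peak is one where none was called.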
